A study of Homo sapiens with 6 samples.

Results

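The cytosolic HSP70 and HSP90 machinery comprised 10 genes chosen by symbol: the transcription factor gene HSF1, the HSP90 genes HSP90AA1 and HSP90AB1, the HSP70 genes HSPA8, HSPA1A and HSPA1B, and the co-chaperone genes HSPH1, DNAJB1, DNAJA1 and FKBP4. All 10 were found among the 46427 genes of each table. They were compared between K562 cells, a human erythroleukemia line that carries the BCR-ABL fusion and is labelled wild type, given 10 µM HR-19011 for 24 h and the same line given 0.1% DMSO as vehicle for 24 h, with 3 libraries in each group. HR-19011 is known here by its code name and is called a squaramide derivative in the series title. The labels do not state the DMSO content of the treated cultures, and nothing in them says that the libraries of a group were grown apart. The p-values below therefore reflect the spread among these 6 libraries alone, which may be technical.

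HSP70 proteins bind exposed hydrophobic stretches of unfolded polypeptides in a cycle driven by ATP. J-domain proteins deliver clients and stimulate hydrolysis, and nucleotide exchange factors release ADP. HSP90 receives partly folded clients from HSP70, among them kinases such as BCR-ABL and steroid receptors. HSP90 is steered by co-chaperones, some of which carry tetratricopeptide repeats. HSF1 is the factor that induces many of these genes during proteotoxic stress, through heat shock elements made of alternating, inverted nGAAn units.

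Values were FPKM, fragment counts scaled to transcript length and to the mapped fragments of a library, so levels of different genes can be set side by side on this per-length scale. Summed FPKM lay between 456639 and 467595 in vehicle and between 420661 and 427819 in HR-19011 libraries, and the read depth behind each value is unknown. All 6 K562 markers reported (HBG1, HBG2, HBZ, GATA1, TAL1, TFRC) averaged at least 1 FPKM in both groups. Their summed level was 8554 to 8729 FPKM in vehicle and 3520.5 to 3704 in HR-19011, and most of it was HBG1 and HBG2 (means of 3349 and 4386 FPKM in vehicle, 1312 and 1885 in HR-19011). The markers did not fall alike. HBZ fell from 556 ± 15.5 to 159 ± 12.2 FPKM and GATA1 from 141 ± 0.922 to 73.1 ± 0.123 (SD, n = 3). TAL1 was at 31.3 ± 0.858 and 32.0 ± 1.43 FPKM, with a direction that depended on scaling. TFRC had a log2 fold change of -0.16. Mitochondrially encoded genes held 20.0% to 21.0% of summed FPKM in vehicle libraries and 13.9% to 14.4% in HR-19011 libraries. Of 6 markers of other cell types, EPCAM alone averaged at least 1 FPKM. The 6 summed to 32.6 to 34.0 FPKM in vehicle and 20.1 to 22.5 in HR-19011, with ALB listed at 0 in all treated libraries. The part of these shifts in the results below was not tested. In bulk RNA, fewer cells of a type and less RNA per cell cannot be told apart.

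The heat shock element letters near the starts of these genes are shown to describe the sequence and were not set against expression values. RefSeq promoter windows on GRCh38.p14, each running from 250 bases before a start to 50 after it, were found for 8 of the 10 genes, in 13 windows. FKBP4 and HSF1 had no window in the set used and were not searched. The letters searched were the 2-unit forms GAANNTTC and TTCNNGAA and the 3-unit forms, in which NNGAA follows the first of these and NNTTC the second. Each 2-unit form reads the same on both strands, the 3-unit forms are each other's reverse complement, and every 3-unit match contains one match of each 2-unit form. A 2-unit form was present for 7 of these 8 genes, against 16.2% of all 27305 genes with a window and 13.5% of all 35116 windows. A 3-unit form was present for 4 of the 8 (HSPA8, HSP90AA1, HSP90AB1, DNAJA1), against 0.608% of genes and 0.490% of windows. Genes with several windows have more chances to match. Known heat shock genes were chosen by symbol here, so shares above those of all genes are no finding about the compound. Other lowered or raised genes were not set apart for this count. HSPH1 had no match in its window, which says only that these letters are not in it. A single 2-unit match 1 base after another DNAJB1 start is not printed. Below, capitals mark the GAA and TTC units of each match in 30-base stretches, written on the gene's strand, each with its span.
HSPA1A, chr6:31815426-31815455, plus strand, 106 bases before the start: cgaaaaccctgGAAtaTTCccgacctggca
HSPA1B, chr6:31827622-31827651, plus strand, 105 bases before the start: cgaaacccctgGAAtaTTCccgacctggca
HSPA8, chr11:123062345-123062374, minus strand, 230 bases before the start: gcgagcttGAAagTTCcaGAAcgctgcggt
HSPA8, chr11:123062170-123062199, minus strand, 55 bases before the start: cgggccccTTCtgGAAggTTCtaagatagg
HSP90AA1, chr14:102087104-102087133, minus strand, 88 bases before the start: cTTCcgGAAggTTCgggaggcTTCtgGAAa
HSP90AB1, chr6:44247770-44247799, plus strand, 165 bases before the start: ggagcaggTTCtgGAAgaTTCatgggctcc
HSP90AB1, chr6:44247823-44247852, plus strand, 112 bases before the start: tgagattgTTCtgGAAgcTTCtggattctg
DNAJB1, chr19:14518456-14518485, minus strand, 77 bases before the start: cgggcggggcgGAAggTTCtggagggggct
DNAJB1, chr19:14518426-14518455, minus strand, 47 bases before the start: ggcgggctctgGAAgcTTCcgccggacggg
DNAJA1, chr9:33025064-33025093, plus strand, 198 bases before the start: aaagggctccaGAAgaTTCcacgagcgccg
DNAJA1, chr9:33025268-33025297, plus strand, match 3 bases after the start: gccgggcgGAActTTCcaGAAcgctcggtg

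The printed HSP90AB1, HSP90AA1 and DNAJB1 stretches belong to one of several RefSeq starts of each gene. For HSPA8, distances are counted from the start of its window. Both stretches lie inside the HSPA8 gene span given below, which runs to 123062462. The HSPA1A and HSPA1B windows were 92.0% identical over 301 aligned positions, and each held a single 2-unit match at nearly the same distance from the start. These letters describe the sequence only, and binding was not measured.

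After HR-19011, 9 of the 10 genes were lower and HSF1 was higher, in limma on log2(FPKM + 1) with Benjamini-Hochberg adjustment over 11856 tested genes at a threshold of 0.05. All 10 genes passed the filter of a mean of at least 1 FPKM, and each would have passed it in either group alone. Lower calls made up 38.0% of all tested genes and higher calls 46.4%, so that 84.4% were called in one direction or the other. With the filter raised to 5 FPKM, which all 10 genes passed, more genes were called lower than higher. The share of lower calls set beside the 10 genes thus depends on the filter. The median log2 fold change was -1.04 over the 10 genes and 0.07 over all tested genes. A log2 fold change of -1 or below was called for 5 of the 10 (FKBP4, HSP90AA1, HSPH1, HSPA8, DNAJA1), against 6.45% of tested genes. The 10 genes together made up 0.964% ± 0.0156 (SD, n = 3) of all FPKM in vehicle libraries and 0.504% ± 0.00360 in treated ones. With mitochondrially encoded genes, whose share moved with treatment, taken out of the total, these shares were 1.22% ± 0.0268 and 0.587% ± 0.00565. For all 9 lower genes, every treated library lay below every vehicle library, as for 38.3% of tested genes.

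**Figure D1:**
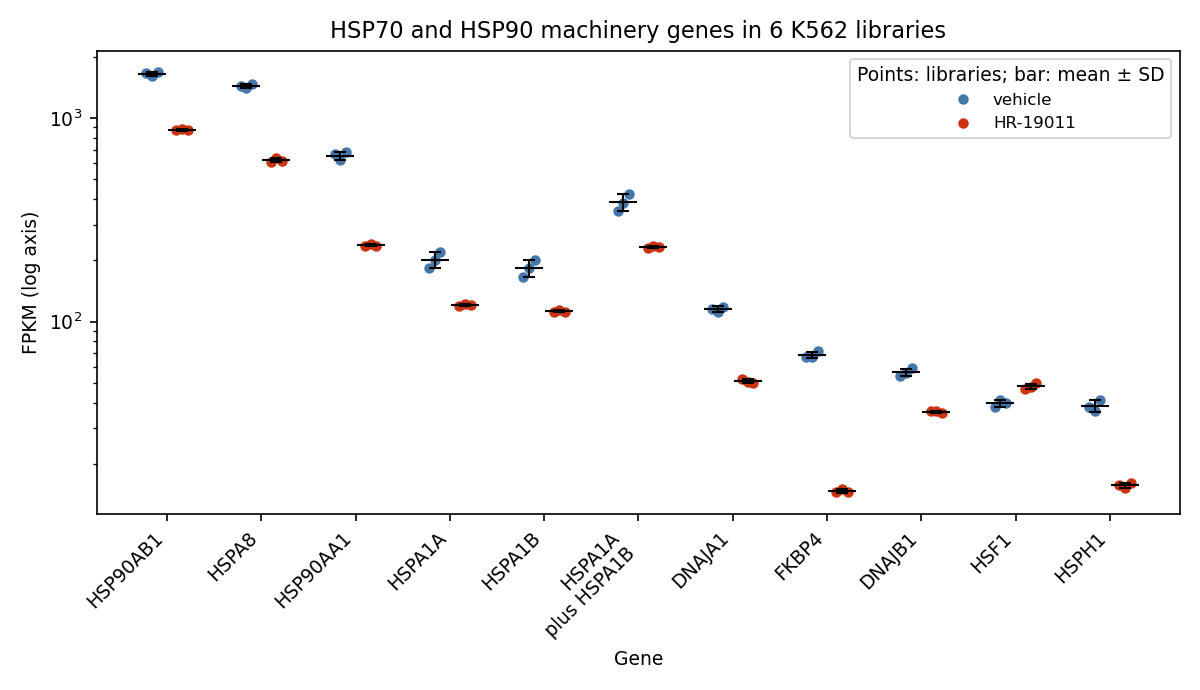
FPKM on a log axis of each gene, and of the sum of HSPA1A and HSPA1B, in the 3 vehicle (blue) and 3 HR-19011 (red) libraries, with bars for mean ± SD. Red points lie below blue points for every gene shown except HSF1, where they lie above.

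**Figure D2:**
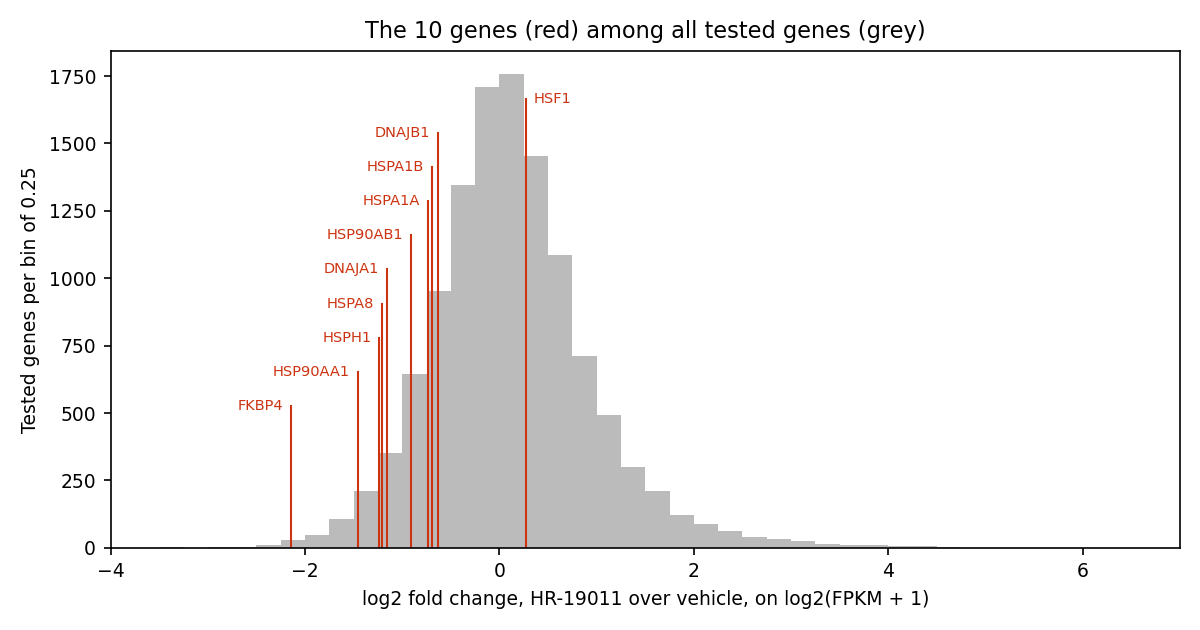
Histogram of log2 fold changes of the 11856 tested genes (grey, bins of 0.25) with the 10 genes as red lines, whose heights carry no value. FKBP4 at -2.14 stands farthest to the left of the 10, and HSF1 at 0.27 is the one to the right of 0.

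HSF1, the regulator, was listed at 37.9, 41.1 and 40.0 FPKM in vehicle libraries 1 to 3 and at 46.8, 47.6 and 49.8 in HR-19011 libraries 1 to 3. The groups did not overlap, as for 46.9% of tested genes in the higher direction, and the means differed 1.21-fold. The log2 fold change was 0.27 (SE 0.0386, limma adjusted p = 0.000146). After TMM scaling, a trimmed-mean correction for unequal library composition, it was 0.04 with a limma adjusted p = 0.441, so the rise of HSF1 depended on how libraries were scaled. HSF1 lies on chromosome 8 from 144291604 to 144314720 in RefSeq on GRCh38.p14, the source of all gene spans given here. It overlaps DGAT1, whose mean was 11.3 ± 0.433 FPKM in vehicle and 12.0 ± 0.296 with the compound (SD, n = 3) and which was not called with deposited FPKM but had a log2 fold change of -0.15 and was called lower under TMM.

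Among the HSP90 genes, HSP90AB1, the constitutive cytosolic isoform (chromosome 6, 44246194 to 44253883), was at 1668, 1613 and 1678 FPKM in vehicle and 869, 886 and 874 in HR-19011. It was the most abundant of the 10 genes in both groups and fell 1.89-fold, a log2 fold change of -0.91 (SE 0.0229, limma adjusted p = 1.57e-09). By mean FPKM it ranked 22 among tested genes in vehicle and 67 in HR-19011. HSP90AA1, the isoform known for its induction by heat (chromosome 14, 102080742 to 102139749), was at 663, 623 and 679 FPKM in vehicle and 237, 241 and 235 in HR-19011. Treated values lay far below all vehicle values, a 2.76-fold fall with a log2 fold change of -1.46 (SE 0.0331, limma adjusted p = 8.86e-10). The 95% intervals of the 2 log2 fold changes, -0.97 to -0.86 for HSP90AB1 and -1.54 to -1.38 for HSP90AA1, did not meet. Within each library, HSP90AA1 stood at 0.397, 0.386 and 0.405 of HSP90AB1 in vehicle and at 0.272, 0.271 and 0.268 in HR-19011. The HSP90AA1 span overlaps WDR20, whose mean was 5.19 ± 0.237 FPKM in vehicle and 4.72 ± 0.252 with the compound (SD, n = 3, not called).

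HSPA8, the constitutive HSP70 also called HSC70 (chromosome 11, 123057489 to 123062462), was at 1444, 1409 and 1479 FPKM in vehicle and 612, 639 and 618 in HR-19011. It fell 2.32-fold, a log2 fold change of -1.21 (SE 0.0267, limma adjusted p = 7.65e-10), and moved from rank 26 to rank 96 among tested genes. Its introns host SNORD14C, SNORD14D and SNORD14E, whose listed values were lower as well (SNORD14C 13.9 ± 0.345 and 2.56 ± 0.0257 FPKM, SD, n = 3); the sources used here do not give how reads were divided between host and small nucleolar RNA genes.

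HSPA1A and HSPA1B encode the stress-inducible HSP70 from neighbouring copies on chromosome 6, at 31815543 to 31817942 and 31827738 to 31830254. Of the 100-base words in HSPA1A transcripts of GENCODE 29, 67.3% also occur in other genes, all of them in HSPA1B, and for HSPA1B 72.7% occur elsewhere. No such sharing was found for HSF1, HSPA8, HSPH1, DNAJB1, DNAJA1 and FKBP4, and at most 1.38% for HSP90AA1 and HSP90AB1. The separate values of the pair are therefore uncertain, and their sum is the safer quantity. The sum was 348, 384 and 422 FPKM in vehicle and 231, 236 and 232 in HR-19011. No treated library reached the lowest vehicle library, and the means, 385 ± 37.1 and 233 ± 2.97 (SD, n = 3), differed 1.65-fold. With the sum in place of the pair, the log2 fold change was -0.72 (SE 0.0593, limma adjusted p = 3.25e-06).

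As listed, HSPA1A was at 183, 200.3 and 221 FPKM in vehicle and 119, 122 and 120.2 in HR-19011, and HSPA1B at 165, 184 and 201 and at 112, 114 and 111. Both were called lower, with log2 fold changes of -0.73 and -0.70. The vehicle libraries were spread more widely for this pair than for any other of the 10 genes, with coefficients of variation of 9.39% and 9.92% against 1.30% and 1.38% in HR-19011. Vehicle replicate 1 was the lowest for both copies and vehicle replicate 3 the highest.

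HSPH1, the HSP110 nucleotide exchange factor of HSP70 (chromosome 13, 31134973 to 31162388), was at 37.9, 36.3 and 41.2 FPKM in vehicle and 15.8, 15.2 and 16.2 in HR-19011. It fell 2.45-fold, with a log2 fold change of -1.24 (SE 0.0490, limma adjusted p = 2.35e-08). DNAJA1, a constitutive class A J-domain protein (chromosome 9, 33025273 to 33039907), was at 116, 111 and 119 FPKM in vehicle and 52.5, 50.6 and 50.1 in HR-19011. It fell 2.26-fold, with a log2 fold change of -1.16 (SE 0.0326, limma adjusted p = 3.04e-09). DNAJB1, the heat-inducible class B partner of HSP70 (chromosome 19, 14514769 to 14560391), was at 54.3, 56.1 and 58.9 FPKM in vehicle and 36.3, 36.3 and 35.7 in HR-19011. Its fall of 1.56-fold was the smallest of the 9 by group means, with a log2 fold change of -0.63 (SE 0.0345, limma adjusted p = 1.93e-07). DNAJB1 overlaps TECR, whose mean was 75.3 ± 1.20 FPKM in vehicle and 60.9 ± 1.36 with the compound (SD, n = 3). The sources used here do not give whether reads were counted by strand.

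FKBP4, also called FKBP52, is the immunophilin that docks on HSP90 in steroid receptor complexes (chromosome 12, 2794970 to 2805423). It was at 66.9, 67.2 and 71.7 FPKM in vehicle and 14.5, 15.1 and 14.6 in HR-19011, so the highest treated library lay more than 4-fold under the lowest vehicle library. The fall was 4.65-fold, with a log2 fold change of -2.14 (SE 0.0362, limma adjusted p = 2.11e-10). That value stood at percentile 0.224 of all tested genes, and the gene moved from rank 1006 to rank 4319 by mean FPKM. FKBP4 overlaps ITFG2-AS1, which averaged 0.0731 FPKM in vehicle and 0.211 in HR-19011 and was not tested.

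In both groups the order of levels was led by HSP90AB1, HSPA8, HSP90AA1, HSPA1A, HSPA1B and DNAJA1, from highest to lowest mean FPKM. In vehicle, HSPA1A and HSPA1B overlapped, as did HSF1 and HSPH1 at the low end (means of 39.7 and 38.5 FPKM), and other neighbours in the order did not. In HR-19011 no neighbours overlapped. FKBP4 went from the seventh place to the last, and HSF1 from the ninth to the seventh.

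**Figure D3:**
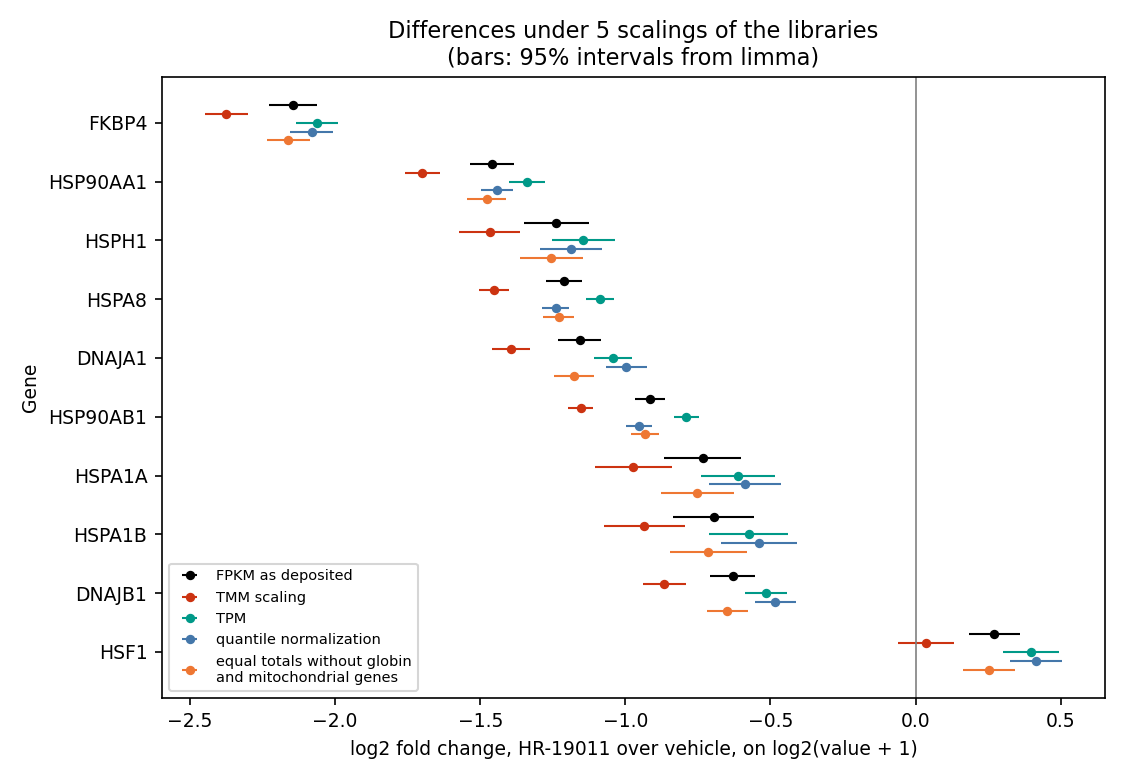
Log2 fold changes of the 10 genes with 95% intervals from limma under 5 scalings of the libraries. The 9 lower genes stay left of 0 under every scaling shown, whereas the HSF1 interval crosses 0 after TMM scaling.

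The direction of the 9 lower genes was the same under all scalings tried. The median log2 fold change of all genes shifted by -0.21 under TMM, by 0.12 on conversion to TPM (values rescaled so that every library sums to the same total) and by -0.13 under quantile normalization, and the median over the 10 genes was -1.27, -0.92 and -0.98 there. Lower calls among all genes made up 50.1%, 32.1% and 45.3% under these settings.

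Ratios of FPKM within a library do not change when all its values are multiplied by a constant, as in the TMM, TPM and equal-total settings, although quantile normalization can change them. On deposited FPKM, 5 ratios were compared, with exact two-sided permutation tests of 3 against 3 libraries, for which p = 0.1 is the smallest possible. Each of the 5 ratios gave an exact permutation p = 0.1, also 0.1 after Benjamini-Hochberg adjustment over the 5. None of the 5 overlapped between groups. Among single tested genes, 38.3% did not overlap in the lower and 46.9% in the higher direction. Ratios of other gene pairs were not computed as a background, so the lack of overlap is not a result about these pairs. Stress-inducible genes did not share one direction relative to their constitutive partners. HSP90AA1 to HSP90AB1 went down from 0.396 ± 0.00928 to 0.271 ± 0.00201 (SD, n = 3), a log2 difference of -0.55. HSPA1A plus HSPA1B to HSPA8 went up from 0.266 ± 0.0229 to 0.374 ± 0.00388, a log2 difference of 0.49. DNAJB1 to DNAJA1 went up from 0.490 ± 0.0179 to 0.707 ± 0.0144, a log2 difference of 0.53.

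The cytosolic members were also set against their relatives in the endoplasmic reticulum. HSPA8 stood at 10.6, 10.4 and 10.1 times HSPA5, the lumenal HSP70 known as BiP, in vehicle and at 0.894, 0.932 and 0.927 times in HR-19011. A cytosolic HSP70 transcript about 10-fold above its lumenal relative thus came to lie below it in all 3 treated libraries, a log2 difference of -3.50. HSP90AB1 stood at 8.49, 8.77 and 8.29 times HSP90B1, the lumenal HSP90 known as GRP94, in vehicle and at 2.25, 2.31 and 2.36 times in HR-19011, a log2 difference of -1.89.

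**Figure D4:**
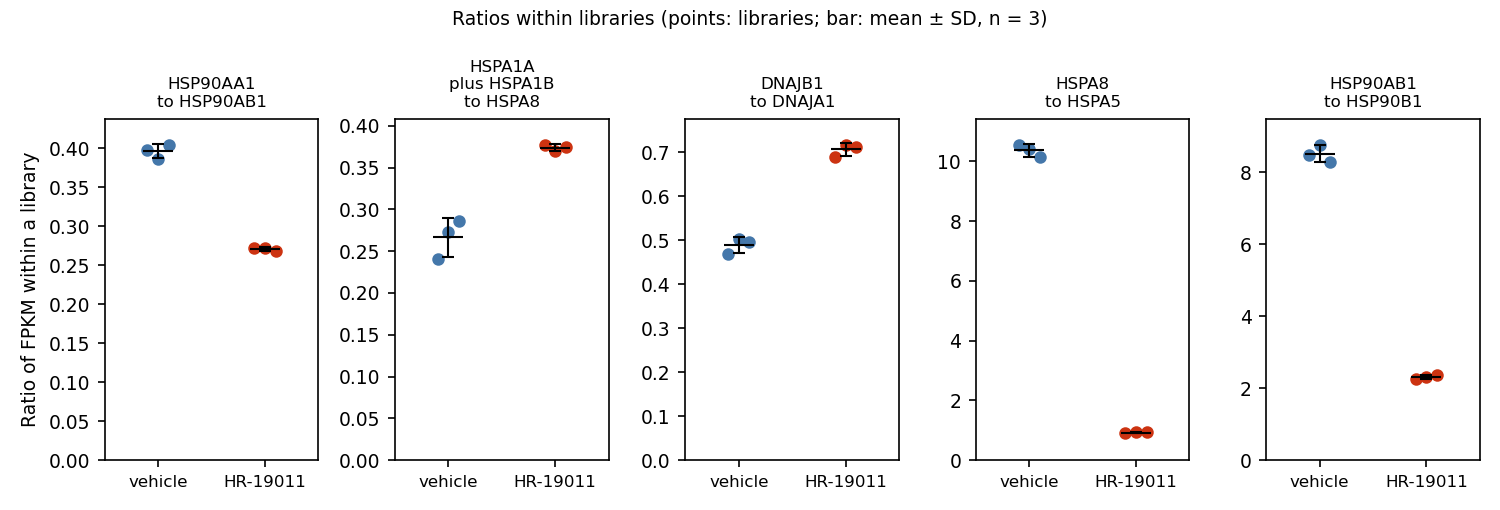
Ratios of FPKM within each library for 5 gene pairs, each on its own linear axis from 0, with points for libraries and bars for mean ± SD (n = 3). HSP90AA1 to HSP90AB1 and both ratios to endoplasmic reticulum genes are lower in HR-19011, and the other two are higher.

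Of 8 chaperone genes of other compartments, 6 were higher and 2 lower (46.4% and 38.0% of all tested genes), with a median log2 fold change of 1.01 (0.07 over all tested genes). In the endoplasmic reticulum, HSPA5 had a log2 fold change of 2.28, the J-domain gene DNAJB9 2.16, HYOU1, the lumenal relative of HSPH1, 1.86, the J-domain gene DNAJB11 1.04 and HSP90B1 0.97. The mitochondrial relatives among these 8 were mixed. TRAP1, the mitochondrial HSP90, fell from 156 ± 6.50 FPKM to 74.6 ± 2.23 (SD, n = 3; log2 fold change -1.06), and the J-domain gene DNAJA3 had -0.30. HSPA9, the mitochondrial HSP70 known as mortalin, rose with a log2 fold change of 0.25 that was 0.01 after TMM scaling (limma adjusted p = 0.699). Other chaperone genes of these compartments are in the heat-inducible list below. Of these, chosen after its value was seen, the mitochondrial chaperonin gene HSPD1 had -0.97. Its partner HSPE1 had -1.92, and SERPINH1 of the endoplasmic reticulum had 1.33.

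The HSP90 co-chaperones outside the 10 genes were mostly lower: 18 of 22 were called lower, 3 higher and 1 was not called, where 38.0% of all tested genes were lower and 46.4% higher. Their median log2 fold change was -0.67. The 3 higher were FNIP1, FNIP2 (log2 fold change 0.25) and AHSA2P (0.77), whose symbol marks a pseudogene. After TMM scaling 2 were higher and 19 lower, and under quantile normalization 2 and 18. STIP1, also called HOP, which bridges HSP70 and HSP90, fell from 206 ± 5.61 FPKM to 96.3 ± 1.60 (SD, n = 3; log2 fold change -1.09). FKBP5, the immunophilin FKBP51 related to FKBP4, fell from 54.9 ± 0.729 FPKM to 24.5 ± 0.476, and its log2 fold change of -1.13 compares with -2.14 for FKBP4. NUDC had a log2 fold change of -1.21. FNIP1, a folliculin partner that slows the HSP90 ATPase, rose from 2.74 ± 0.169 to 7.41 ± 0.127 FPKM, a log2 fold change of 1.17. Chosen after their values were seen, the ATPase activator gene AHSA1 had a log2 fold change of -1.13, PTGES3, encoding p23, had -1.05, and the kinase adaptor gene CDC37 had -0.18, from 145 ± 7.83 to 128 ± 4.24 FPKM, a call lost on conversion to TPM (-0.06, limma adjusted p = 0.182).

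Of 23 other HSP70 family and co-chaperone genes, 21 were tested, with 14 lower, 5 higher and 2 not called (38.0% lower and 46.4% higher among all tested genes) and a median log2 fold change of -0.46. HSPA4, an HSP110 relative of HSPH1, fell from 72.7 ± 1.74 FPKM to 41.7 ± 0.667 (SD, n = 3; log2 fold change -0.79). The 5 higher genes (HSPA6, HSPA13, DNAJB2, DNAJB4, DNAJB5) all averaged at most 5.14 FPKM in vehicle. HSPA6, DNAJB2 and DNAJB5 averaged under 1 FPKM there (0.379, 0.608 and 0.596) and passed the filter only through treated libraries. The count of higher genes thus depends on the filter. HSPA6, an HSP70 known for strict stress induction whose close pseudogene copy HSPA7 could share its reads, went from 0.379 ± 0.0167 to 5.31 ± 0.464 FPKM, a log2 fold change of 2.19 that the added pseudocount makes smaller than the ratio of means. The J-domain gene DNAJB5 went from 0.596 ± 0.0903 to 7.27 ± 0.206 FPKM, and HSPA13, a microsome-associated HSP70 relative, from 5.14 ± 0.245 to 25.3 ± 1.10 FPKM. Chosen after their values were seen, the nucleotide exchange factor gene BAG1 had a log2 fold change of -1.15 and the ubiquitin ligase gene STUB1, encoding CHIP, had -1.04. The 2 genes not called were ST13, which encodes the HSP70-interacting protein HIP (70.7 ± 2.25 and 72.8 ± 0.641 FPKM), and BAG3 (20.0 ± 0.763 and 19.2 ± 0.254 FPKM), and TMM scaling called both lower, with log2 fold changes of -0.19 and -0.28.

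Of 15 small heat shock protein and other heat-inducible genes, 11 were tested, with 5 lower, 5 higher and 1 not called and a median log2 fold change of -0.06. These counts lie near the 38.0% lower and 46.4% higher of all tested genes and are not a result about the list. HSPA6 and BAG3 belong to this list too, and HSPA6 passed the filter only through treated libraries. HSPE1, encoding the mitochondrial co-chaperonin, had a log2 fold change of -1.92, and HSPB1, encoding the small heat shock protein HSP27, -1.25, from 263 ± 12.3 to 110 ± 2.60 FPKM (SD, n = 3). SERPINH1, encoding the collagen chaperone HSP47, rose from 48.9 ± 1.66 to 124 ± 2.82 FPKM. The 4 genes under the filter, CRYAB, HSPB6, HSPB8 and HMOX1, averaged under 1 FPKM in each group.

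Among 9 HSF genes and HSF-binding regulators, 6 were tested, with 2 lower, 3 higher and 1 not called and a median log2 fold change of 0.13. These counts too lie near the 38.0% and 46.4% of all tested genes, and after TMM scaling 1 of the 6 was higher and 3 were lower. HSF2, a relative that can pair with HSF1, fell from 9.64 ± 0.317 FPKM to 5.92 ± 0.431 (SD, n = 3; log2 fold change -0.62). HSBP1, which binds HSF1 trimers, had -0.39. FBXW7, a ubiquitin ligase subunit for HSF1, had 0.40, and the deacetylase gene SIRT1 had 0.27, which was 0.05 after TMM scaling (limma adjusted p = 0.212).

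**Figure D5:**
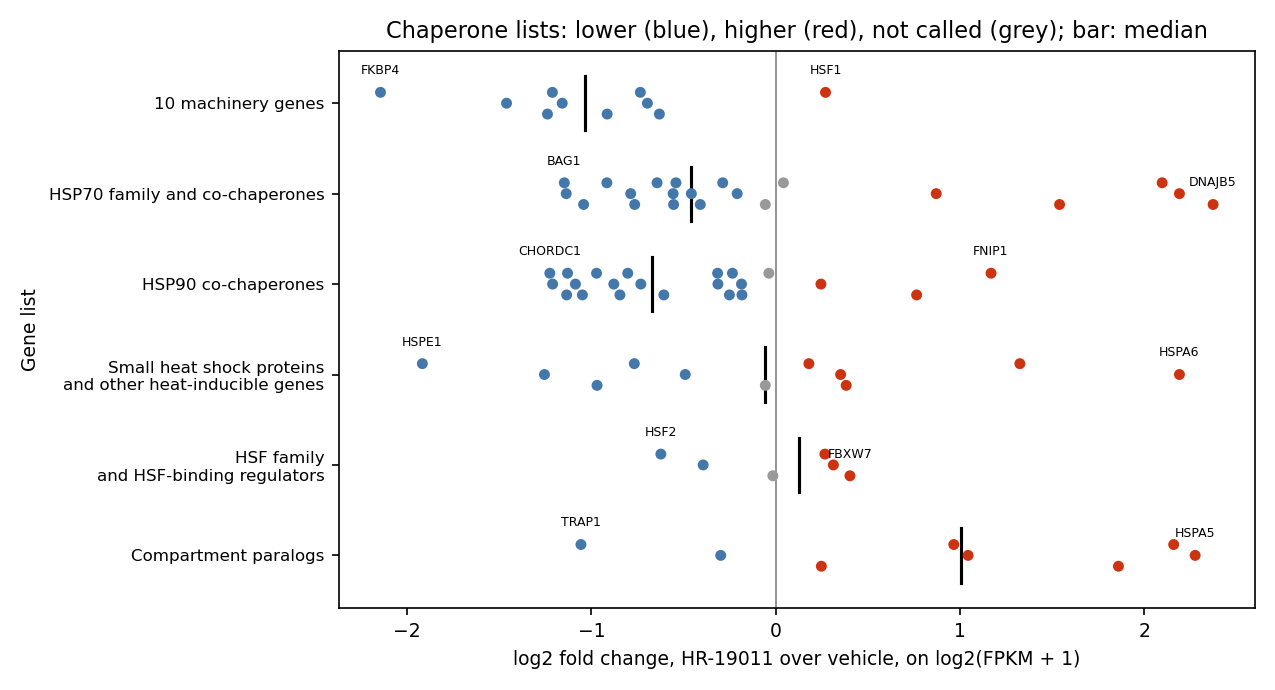
Log2 fold changes of the tested genes in each chaperone list, one point a gene, coloured by call in limma, with a black bar for the median and names at both ends of each list. Medians lie at -1.04 for the 10 machinery genes, -0.67 for HSP90 co-chaperones and 1.01 for relatives in other compartments.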

How the data were processed

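RNA of 6 K562 libraries was measured by RNA-seq: per the labels' protocols, total RNA was isolated with TRIzol and libraries were built with a stranded mRNA kit. The deposited values are FPKM per NCBI gene, per the file headers. The submitters' processing notes list GRCh38 and, without roles, StringTie 2.1.3b, HISAT2 2.1.0, HISAT, Bowtie2, DESeq2 1.24.0, SAMtools 1.9 and Trimmomatic 0.38. The division of reads between similar genes and the read depth are not given in the sources used here. FPKM are not counts, so no count model was used.

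Genes that averaged 1 FPKM or more across the 6 libraries entered a test with limma 3.58.1 in R 4.3.3 on log2(FPKM + 1), with a group term alone, a trend of variance on mean level, and two-sided moderated tests. P-values were adjusted by Benjamini-Hochberg over all tested genes. Folds without log2 are ratios of group means. The procedure was tested on simulated data. The members and lists were chosen with earlier results of these data known. Named are all 10 genes, up to 4 tested genes with the smallest p from each list (with 1 or more in each called direction), all 8 relatives in other compartments, and the 5 genes nearest in profile; markers, overlapping genes and members of small counts are also named, and the rest are marked as chosen with their values known. The alternatives tried were a pseudocount of 0.1 or 5, the filter removed or raised to 5 FPKM, TPM, quantile normalization, TMM scaling (log ratios trimmed by 30%, mean logs by 5%), totals equalized with globin and mitochondrial genes set aside, no variance trend, a replicate block, pseudogene sums and each library left out. Of the listed genes, 2 are not reported here and were left out of list counts, medians and sums.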

Additional observations from a re-analysis of the deposited data

How the results depend on the processing

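Among named genes that were recomputed, no called difference changed sign under any alternative. The direction over all genes did change: their median log2 fold change was 0.07 with deposited FPKM, -0.14 under TMM and -0.06 under quantile normalization. Of the recomputed gene values, counts, ratios and shares, 1115 of 1139 kept their side of the threshold, stayed within 1.5 times a count, or moved by less than 1 SD, including all 444 that left out 1 library. ST13, TAL1 and DGAT1, not called with deposited FPKM, were called lower under TMM (log2 fold changes of -0.19, -0.20 and -0.15; limma adjusted p = 9.46e-05, 0.000802 and 0.0123) and higher as TPM (0.17, 0.15 and 0.20). BAG3 was called lower under TMM (-0.28). CDC37 and TFRC lost their calls as TPM (-0.06 and -0.04) and under quantile normalization (-0.07 and -0.03). The 9 lower genes stayed called under every alternative run. After TMM scaling 0 of the 10 genes were higher in limma, also 0 at an unadjusted p under 0.05, since HSF1 lost its call; 1 of the HSF regulators was then higher. Without a filter 8828 of all genes were higher, and 3347 with the filter raised to 5 FPKM. At 5 FPKM more genes were called lower than higher, the reverse of the main setting and of the setting without a filter. All 10 genes passed that filter, so the shares of all tested genes set beside them include many genes of lower level. At 5 FPKM, 2 genes of the HSP70 family and co-chaperone list and 1 HSF regulator were higher because fewer genes were tested. Without mitochondrially encoded genes the 10 genes held 1.22% of summed FPKM in vehicle and 0.587% in HR-19011. The share of called genes that were higher was 55.0% with deposited FPKM, 62.2% as TPM, 46.1% under quantile normalization and 41.1% under TMM. Leaving out 1 library gave log2 fold changes between -0.79 and -0.65 for HSPA1A plus HSPA1B. Summing members with pseudogenes named after them added at most 0.382% to any member.

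Replicate numbers are shared between groups, but same-numbered libraries did not deviate together (correlations of -0.0343, -0.00448 and -0.108). No library correlated best with its own number. With the replicate block, 9 of the 10 genes were lower and 1 higher, 4445 of all genes were lower and 5435 higher, and HSPA1A plus HSPA1B kept a log2 fold change of -0.72 (limma adjusted p = 6.49e-06). Depth is unknown, so counting error could not be separated from the spread between libraries.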

Other observations

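The summed FPKM of HSPA8, HSPA1A and HSPA1B was 0.793 ± 0.0205 (SD, n = 3) of the summed FPKM of HSP90AA1 and HSP90AB1 in vehicle and 0.769 ± 0.00787 in HR-19011. The HR-19011 libraries lay between 0.762 and 0.777 and the vehicle libraries between 0.769 and 0.806, so the groups overlapped although both sums fell to less than 50% of their vehicle level. This ratio was added after seeing the data and was not tested.

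The 5 genes whose centred log2(FPKM + 1) profile over the 6 libraries lay nearest to the mean profile of the 9 members other than HSF1, out of 8073 candidates, were GINS2, PPRC1, EXOSC3, STIP1 and NSUN2, at Euclidean distances of 0.0486 to 0.0699. With 2 groups of closely spaced libraries, this likeness rests mainly on the size of 1 difference. STIP1 is also on the list of HSP90 co-chaperones.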
